A study of Danio rerio with 6 samples.

Results

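Genes for secreted proteins of the liver and for enzymes and hormones of the pancreas were followed in whole kidney marrow of zebrafish. The list held 34 symbols, which were matched without regard to case to the gene names of the measured features, and 32 were found. Because 2 features carry the name CPA1, they gave 33 features of the 32267 measured, 20 for liver and 13 for pancreas. The remaining symbols, cpa4 and cel.1, had no match and are not analysed here, although 2 features named CEL are described among the related genes. Averaged over the 6 libraries, all 33 features reached the minimum of 10 normalized counts and entered the comparison of the groups.

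Kidney marrow is where adult fish make their blood cells, and the study compared it between wild-type and il7 mutant fish to learn what the cytokine does in lymphocyte development. Each library was made from total RNA of unfractionated marrow cells of strain TLEK, with strand kept and ribosomal RNA removed. The control group consisted of 3 wild-type libraries, and the mutant group of 3 libraries from fish in which exons 2 to 4 inside il7 are deleted. The labels name no treatment and give neither the age of the fish nor the number of fish per library. The p-values therefore reflect the spread of these samples alone, and that spread could be technical. Depth ranged from 34496353 to 46120889 reads per library. The targeted gene il7 stood between 57.7 and 89.8 normalized counts in the controls and between 4.00 and 17.8 in the mutants. Genes that define marrow were abundant: hbaa1, a haemoglobin chain, lyz, the lysozyme of myeloid cells, and alas2, the haem synthesis enzyme of red cells, were detected in every library.

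Hepatocytes make most plasma proteins, among them fibrinogen, prothrombin, complement, the apolipoproteins that carry lipids, and inhibitors that keep serine proteases of the blood in check. Acinar cells of the exocrine pancreas make digestive enzymes, of which the proteases are made as inactive precursors. The enzyme genes are among the most highly transcribed of the whole animal, whereas islet cells make insulin and glucagon. Several of the genes on the liver list, such as rbp4, cp and c3, are also transcribed outside the liver in vertebrates.

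The 2 organs differed in which libraries were high. The digestive enzyme genes were high in control 3 and il7 mutant 2, while a set of liver genes was high in il7 mutant 2 and il7 mutant 3. The 13 pancreas features summed to 9268, 16846 and 96904 normalized counts in control 1, 2 and 3, and to 12042, 60241 and 13085 in il7 mutant 1, 2 and 3. These sums were 0.0255% to 0.225% of the reads of a library. One CPA1 feature (ENSDARG00000021339) made up most of the sum in the low libraries, and without it the sums were 824, 1374 and 83581 in the controls and 3409, 44237 and 3565 in the mutants. The 20 liver features summed to 12935, 12331 and 49364 in the controls and to 60879, 18915 and 44423 in the mutants, or 0.0309% to 0.150% of the reads. Without apoa2, the liver feature with the highest mean, the sums were 12879, 12249 and 34540 in the controls and 32976, 17725 and 35839 in the mutants. In both sums il7 mutant 2 was the lowest mutant library, unlike in the set of liver genes named above. In bulk samples such as these, fewer cells of a type and less RNA per cell cannot be told apart.

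**Figure D1:**
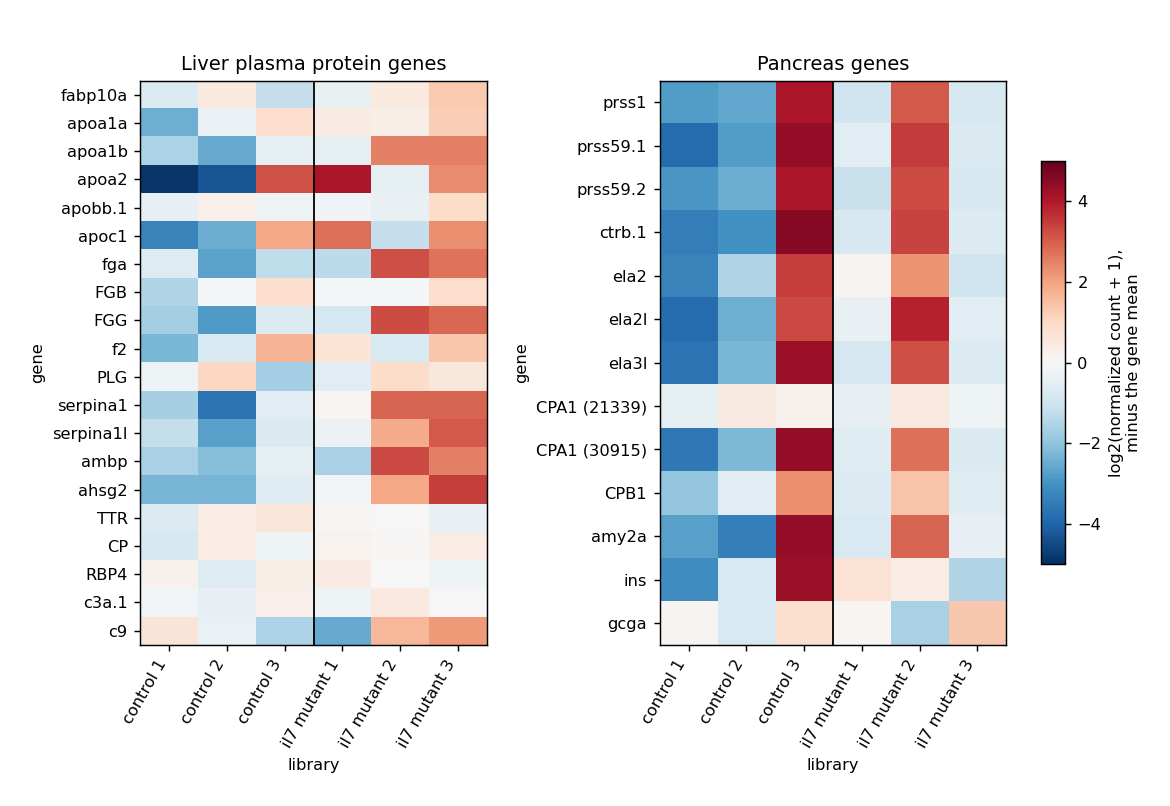
Heat map of log2(normalized count + 1) minus the mean of the gene over the 6 libraries, with liver genes on the left, pancreas genes on the right, and a black line between the 3 control and the 3 il7 mutant libraries. Digestive enzyme genes other than the CPA1 feature in the eighth row are red in control 3 and il7 mutant 2, and fga, FGG, serpina1, serpina1l, ambp, ahsg2 and apoa1b are red in il7 mutant 2 and il7 mutant 3.

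Among the liver genes, the 4 protease inhibitor genes shared 1 pattern, low in all controls and in il7 mutant 1 and high in il7 mutant 2 and il7 mutant 3. Values below are normalized counts in the order control 1, 2 and 3 and then il7 mutant 1, 2 and 3. The gene serpina1, which encodes alpha-1-antitrypsin, had 3.15, 0 and 7.77 in the controls and 12.97, 97.2 and 97.9 in the mutants. Every mutant library lay above every control library, but il7 mutant 1 stood on 11 reads and the controls on 4, 0 and 7 reads. Its neighbour serpina1l had 7.88, 2.02 and 11.1 in the controls and 15.3, 72.4 and 168 in the mutants, again without overlap. The gene ahsg2, which encodes a fetuin of the plasma, had 0, 0 and 2.22 in the controls and 3.54, 17.8 and 53.0 in the mutants. This gap between the groups rested on 2 reads in control 3 against 3 reads in il7 mutant 1. The gene ambp, which encodes the joint precursor of alpha-1-microglobulin and the inhibitor bikunin, had 4.73, 3.03 and 12.2 in the controls and 4.72, 176 and 102 in the mutants, so il7 mutant 1 lay within the controls. Summed over the 4 genes, the levels were 15.8, 5.05 and 33.3 in the controls and 36.5, 364 and 421 in the mutants.

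Of the 3 fibrinogen chain genes, whose products assemble into 1 clotting protein, the alpha and gamma chains shared that pattern and the beta chain did not. The alpha chain gene fga had 19.7, 4.04 and 12.2 in the controls and 11.8, 296 and 207 in the mutants. The gamma chain gene FGG had 5.51, 2.02 and 12.2 in the controls and 10.6, 202 and 156 in the mutants. In both, il7 mutant 1 was within the range of the controls. The beta chain gene FGB had 272, 748 and 1366 in the controls and 724, 729 and 1416 in the mutants, so its highest libraries were il7 mutant 3 and control 3. The highest library of FGB was 5.21 times its lowest, against 73.4 times for fga and 100 times for FGG. Relative to il7 mutant 2, control 3 stood at 0.0412 times its level for fga and at 1.87 times its level for FGB, so these libraries ranked in opposite order for the chains. Yet fga and FGB lie 2 protein-coding genes apart in the RefSeq annotation.

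The 5 apolipoprotein genes did not follow 1 pattern. The gene apoa1b, for the main protein of high density lipoprotein, had 85.9, 44.5 and 189.7 in the controls and 189, 1492 and 1475 in the mutants, so il7 mutant 1 lay just below control 3. Its paralog apoa1a had 38.6, 168 and 378 in the controls and 284, 258 and 495 in the mutants, with overlapping groups. A different set of libraries was high for apoa2 and apoc1, for proteins that ride on lipoprotein particles. The gene apoa2 had 55.9, 81.8 and 14824 in the controls and 27903, 1189.8 and 8584 in the mutants, a span of 499 times between the lowest and highest library. The gene apoc1 had 170.1, 306 and 6661 in the controls and 11556, 756 and 8760.0 in the mutants. Control 3, il7 mutant 1 and il7 mutant 3 were thus the 3 high libraries of both genes, which lie close to each other in the RefSeq annotation (2 protein-coding genes apart). The gene apobb.1, for an apolipoprotein B, varied little, with 421, 673 and 476 in the controls and 494, 426 and 1067 in the mutants.

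Among the other liver genes, fabp10a, the fatty acid binding protein used as the defining hepatocyte gene of zebrafish, had 427, 964 and 305 in the controls and 535, 976 and 1702 in the mutants. It was thus present in every library, il7 mutant 3 was highest, and il7 mutant 2 and control 2 were nearly equal. The prothrombin gene f2 had 899, 2579.7 and 13973 in the controls and 7016, 2580.0 and 11371 in the mutants. Like apoa2 and apoc1, f2 was highest in control 3, il7 mutant 1 and il7 mutant 3. The plasminogen gene PLG had 139, 339 and 51.0 in the controls and 112, 317 and 245 in the mutants, with control 3 lowest. The gene c9, for a protein of the membrane attack complex, had 29.1, 14.1 and 5.55 in the controls and 2.36, 60.5 and 82.9 in the mutants. Its lowest library was thus a mutant, il7 mutant 1. The vitamin A carrier RBP4, the copper protein gene CP (ceruloplasmin) and the complement gene c3a.1 varied by 2.07, 2.25 and 1.85 times between the lowest and the highest library. RBP4, for example, had 9761, 5330.2 and 10219.9 in the controls and 11036, 8251 and 7329 in the mutants. The thyroid hormone carrier TTR stayed between 10.2 and 26.6 in all libraries.

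**Figure D2:**
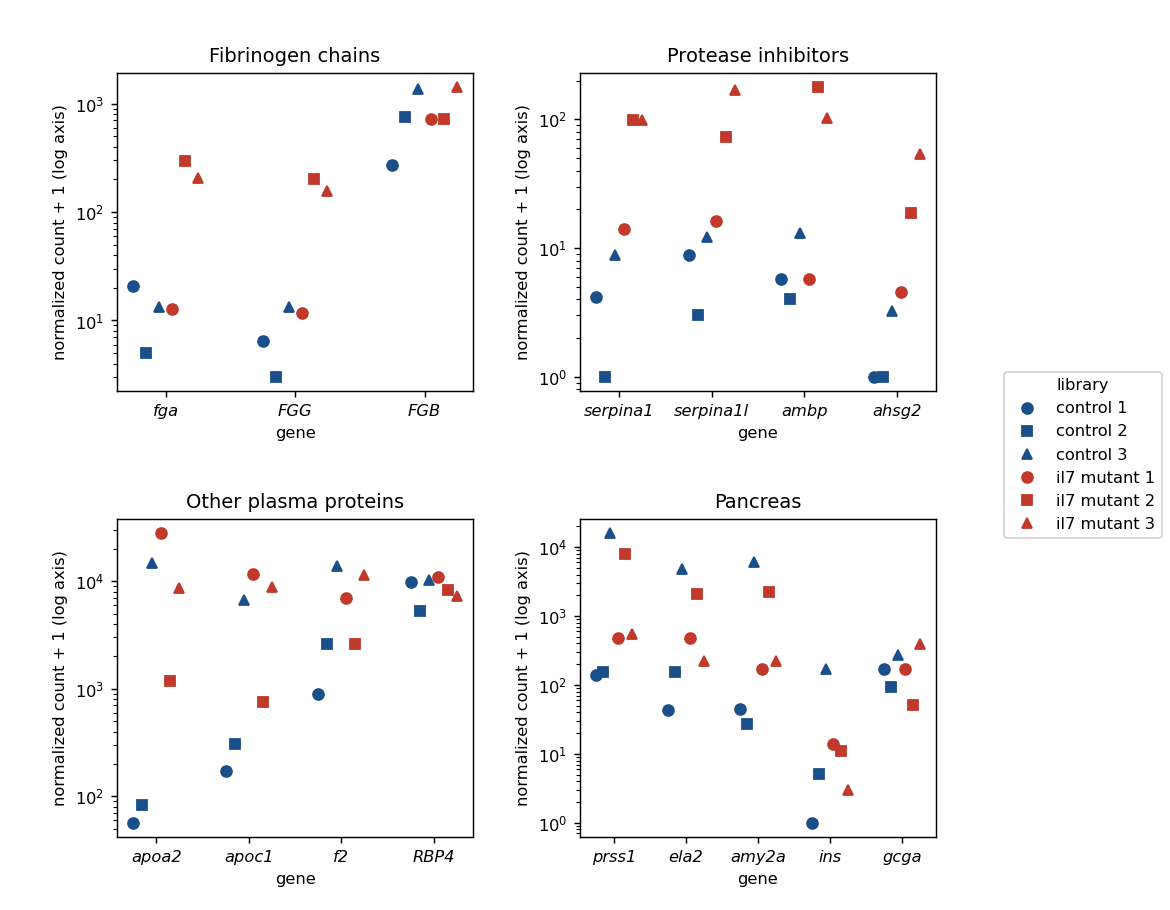
Normalized count + 1 of single genes on log axes, 1 point per library, blue for control and red for il7 mutant, with the marker giving the replicate number. The genes fga, FGG, serpina1, serpina1l, ambp and ahsg2 have their 2 highest points in il7 mutant 2 and il7 mutant 3, apoa2, apoc1 and f2 have their 3 highest in control 3, il7 mutant 1 and il7 mutant 3, and prss1, ela2 and amy2a have their 2 highest in control 3 and il7 mutant 2.

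Of the 13 pancreas features, 10 had their 2 highest libraries in control 3 and il7 mutant 2, beside 2.54% of all fitted genes, and all 10 were digestive enzyme genes. In each of the 10 the lower of those libraries was at least 3 times the next, as in 0.173% of the 20782 fitted genes (36 genes). The trypsin gene prss1 had 136, 154 and 15974 in the controls and 473, 7869.8 and 542 in the mutants. The chymotrypsin gene ctrb.1, matched to the listed ctrb1 through a RefSeq synonym, had 60.7, 83.9 and 16231 in the controls and 397, 7153 and 427 in the mutants. The amylase gene amy2a had 43.3, 26.3 and 6083 in the controls and 169.8, 2223 and 222 in the mutants. In prss1, ctrb.1 and amy2a, il7 mutant 1 and il7 mutant 3 were also above control 1 and control 2, whereas in CPB1 control 2 was above both. For prss1, il7 mutant 1 was 3.47 times control 1 and 3.08 times control 2.

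The other members of the trypsin and elastase families were high in the same libraries. The neighbouring trypsin-like genes prss59.1 and prss59.2 had 12917 and 11809 in control 3 and 6999 and 6878 in il7 mutant 2, against 41.7 to 419.7 for prss59.1 and 93.0 to 407 for prss59.2 in the remaining libraries. The elastase genes ela2 and ela3l had 4816 and 6985 in control 3 and 2076 and 3402 in il7 mutant 2. The elastase gene ela2l had 24.4, 64.7 and 3582 in the controls and 278, 5243 and 253 in the mutants. It was the 1 enzyme gene of these 10 with il7 mutant 2 above control 3. The ratio of control 3 to il7 mutant 2 was 0.683 for ela2l and between 1.72 (prss59.2) and 3.07 (CPA1, ENSDARG00000030915) for the other 9. The carboxypeptidase gene CPB1 had 183, 498 and 3533 in the controls and 441, 1938 and 472 in the mutants, a span of 19.3 times. The other 9 of these 10 genes spanned over 100 times, such as 117 times for prss1 and 309 times for prss59.1.

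The 2 features named CPA1, both annotated as carboxypeptidase A1, went separate ways. The feature ENSDARG00000030915 had 3.94, 11.1 and 1208 in the controls and 37.7, 394 and 34.0 in the mutants, like the other enzymes. The feature ENSDARG00000021339 had 8444, 15472 and 13323 in the controls and 8633, 16003 and 9520.3 in the mutants, a span of 1.90 times. It was high in all 6 libraries, also in control 1 and control 2, where prss1 stood at 136 and 154. In control 1, ENSDARG00000030915 held 5 reads and ENSDARG00000021339 held 10719, and in control 3 they held 1089 and 12009. How reads shared by near-identical copies were counted is not known here, so the levels of such copies are uncertain. The pairs prss59.1 and prss59.2, ela2 and ela2l, and serpina1 and serpina1l are direct neighbours in the RefSeq annotation.

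The islet hormones did not follow the enzymes. The insulin gene ins had 0, 4.04 and 168 in the controls and 12.97, 9.92 and 2.00 in the mutants, which were 0, 4 and 151 reads and 11, 10 and 2 reads. Control 3 was high, as for the enzymes, but il7 mutant 2 was not: control 3 held 16.9 times the insulin level of il7 mutant 2, against at most 3.07 times for the listed digestive enzymes. The glucagon gene gcga had 169, 90.9 and 275 in the controls and 169, 50.6 and 394 in the mutants. Its lowest library was il7 mutant 2, in which the enzymes were high.

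Between the groups, no liver or pancreas feature passed the test. The comparison used limma on log2(normalized count + 1), with Benjamini-Hochberg adjustment at 0.05 over all 20782 fitted genes. It called 0 of the 33 features, and the background was 0 of 20782 genes (0.0%). The targeted gene il7 was thus not called either, with a log2 change of −2.55 (SE 0.66). For il7 the authors' deposited table gives −2.45 with an adjusted p of 0.0403. Without adjustment, limma gave p under 0.05 for 282 genes higher in mutants (1.36%) and 441 lower (2.12%), which together are 723. Of the 20 liver features, 5 were among the higher genes and 0 among the lower, and of the 13 pancreas features 0 were among either. The 5 were apoa1b, FGG, serpina1, serpina1l and ahsg2. Groups that did not overlap, with the mutants higher, were found for 3 of 20 liver features (serpina1, serpina1l and ahsg2) and 0 of 13 pancreas features, beside 3.51% of all genes. Groups that did not overlap with the mutants lower were found for 0 of the 33, beside 4.44% of all genes. An exact permutation test of 3 against 3 samples cannot go below 0.1.

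For the liver features, 19 of 20 had a log2 change above 0, beside 45.9% of all genes, and their median was 1.11, beside −0.04 for all genes. The changes of the inhibitors were 3.95 (SE 1.15) for serpina1, 3.09 (SE 1.02) for serpina1l, 2.81 (SE 1.36) for ambp and 3.49 (SE 1.13) for ahsg2. The mean level of serpina1 was 3.64 ± 3.91 (SD, n = 3) in the control libraries and 69.3 ± 48.8 (SD, n = 3) in the mutant libraries. The unadjusted limma p of serpina1 was 0.0123 and its adjusted p was 1.00. The fibrinogen chains differed in size, with 3.05 (SE 1.29) for fga, 3.49 (SE 1.23) for FGG and 0.47 (SE 0.62) for FGB. A large change did not mean a small error: apoa2 had 4.00 with an SE of 2.30 and apoc1 had 2.59 with an SE of 1.63. The stable genes had changes near 0, with 0.11 (SE 0.32) for RBP4, 0.18 (SE 0.33) for c3a.1 and −0.21 (SE 0.57) for TTR, the 1 liver feature below 0. Without control 3 the median of the liver list was 1.99. Without il7 mutant 3 it was 0.53, with ahsg2 under the minimum mean and not fitted.

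In the authors' deposited table, 1 of the 33 features had an adjusted p under 0.05, namely apoa1b (log2 fold change 3.30, adjusted p 0.0345). Among all 21481 genes with an adjusted p there, 0.209% were called higher and 0.312% lower. For apoa1b, limma gave 3.04 (SE 0.94) with an unadjusted p of 0.0161 and an adjusted p of 1.00. The mean level of apoa1b was 107 ± 74.8 in control libraries and 1052 ± 748 in mutant libraries (SD, n = 3), and 2 of the 3 mutant libraries stood above every control. No p-value is given in the authors' deposited table for 10 of the 13 pancreas features and for 0 of the 20 liver features, beside 5.67% of the fitted genes.

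The direction of the pancreas enzymes depended on the scale. Of the 13 pancreas features, 10 had a log2 change above 0, with a median of 0.94, but 9 of these 10 had a lower arithmetic mean in mutants than in controls. The authors' deposited table puts the log2 fold change of the same 9 below 0, such as −0.87 for prss1 and −1.23 for amy2a. It gives 0.65 for ela2l. For prss1 the mean was 5421 ± 9139 in control libraries and 2961 ± 4251 in mutant libraries (SD, n = 3), while the log2 change was 0.86 (SE 2.07). In prss1, control 3 exceeded il7 mutant 2, whereas il7 mutant 1 and il7 mutant 3 exceeded control 1 and control 2. The gene ela2l, whose arithmetic mean was also higher in mutants, had a log2 change of 1.99 (SE 2.07) with an unadjusted limma p of 0.372, the smallest of the pancreas features. The log2 change was −0.30 (SE 1.89) for ins, −0.11 (SE 0.81) for gcga and −0.13 (SE 0.34) for the CPA1 feature ENSDARG00000021339. The median of the pancreas list was 3.27 without control 3, where ins fell under the minimum mean and was not fitted. It was −0.18 without il7 mutant 2 and 1.57 without il7 mutant 1 or il7 mutant 3. When control 1 or control 2 was left out it was −0.34 and 0.047.

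**Figure D3:**
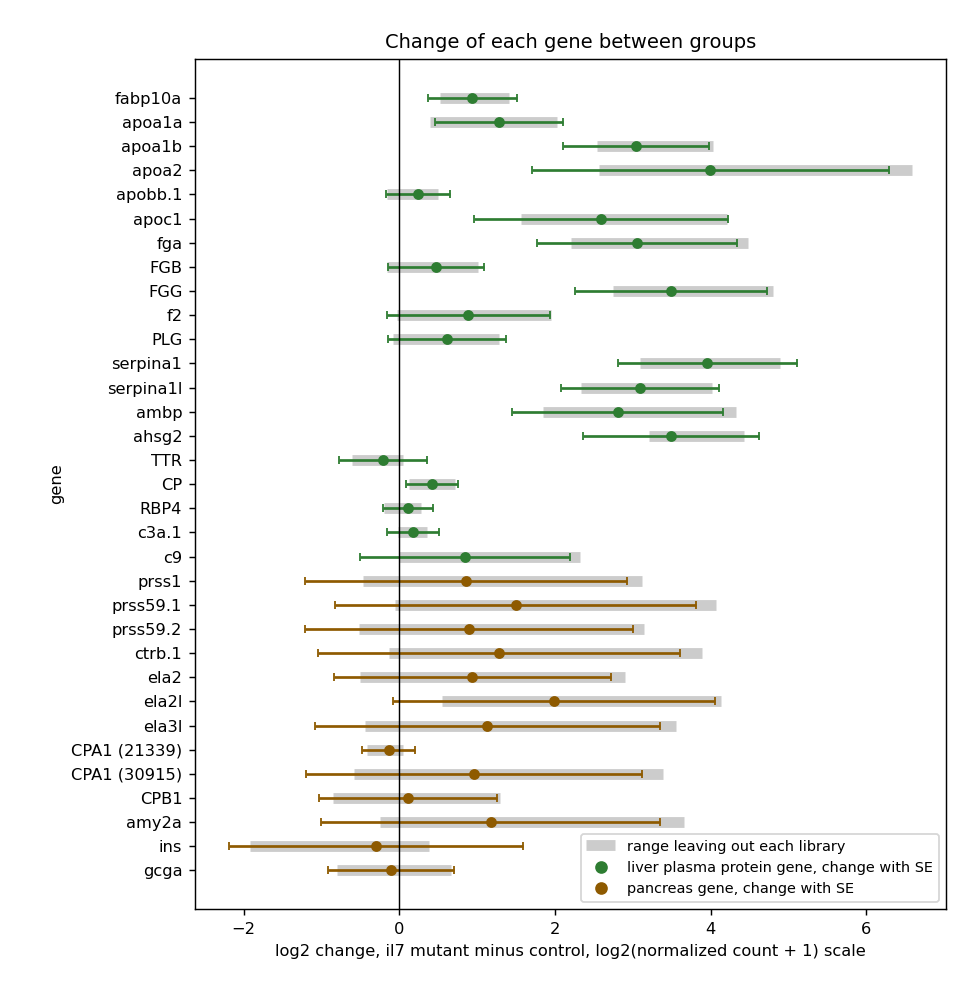
Log2 change of each gene, il7 mutant minus control, on the log2(normalized count + 1) scale; points are the limma estimates from 3 against 3 libraries, bars are the standard error, and grey bands are the range when each library is left out in turn. Of the liver genes (green) 12 keep 1 sign in every such fit that they entered, among them fga, FGG and the 4 protease inhibitors. Of the pancreas genes (brown) only ela2l does. The inhibitor ahsg2 fell under the minimum mean without il7 mutant 3, its highest library, and was not fitted there. Whether its sign holds without that library was thus not tested, and its band lacks that fit. For the same reason the band of ins lacks the fit without control 3.

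Each gene set was then read against other genes of the same organ. Of the 41 fitted features of a list of other liver plasma proteins, 13 had il7 mutant 2 and il7 mutant 3 as their highest libraries, beside 9 of the 20 listed liver features and 2.59% of all genes. In 5 of the 41 and 7 of the 20 the lower of those libraries was at least 3 times the next, beside 0.135% of all genes (28 genes). The 7 were apoa1b, fga, FGG, ambp, serpina1, serpina1l and ahsg2. Of the 28 genes, 7 were listed liver features, 6 belonged to the other lists and 15 to none. The 5 other plasma protein genes included the transferrin gene tfa, the hemopexin gene hpxa and the fetuin B gene fetub, which were named after their values were seen. The gene tfa had 106, 187 and 173 in the controls and 131, 1393 and 1139 in the mutants. The gene hpxa had 11.0, 3.03 and 15.5 in the controls and 10.6, 159.6 and 355 in the mutants. As in fga and FGG, il7 mutant 1 was at the level of the controls in both.

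Over the whole of that other list the values were nearer 0. Of its 41 fitted features 26 had a log2 change above 0, with a median of 0.27, and limma called 0 after adjustment. One gene in it, hpxb, a second hemopexin gene, was high in all 3 mutants: it had 11.0, 8.08 and 14.4 in the controls and 499, 100.1 and 323 in the mutants. Its log2 change was 4.42 (SE 0.67) with an adjusted limma p of 0.556, and the authors' deposited table gives 4.78 with an adjusted p of 2.48e-08. It was named after its values were seen. Unlike the listed liver genes with a high il7 mutant 2, hpxb was highest in il7 mutant 1.

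Of the 20 fitted genes for liver metabolism and the 8 for liver transcription factors, 2 and 0 had il7 mutant 2 and il7 mutant 3 as their highest libraries. A log2 change above 0 was found for 12 of the metabolism genes (median 0.22) and 6 of the transcription factor genes (median 0.31). The gene CYP7A1, for the first enzyme of bile acid synthesis from cholesterol, had 648, 1441 and 74788 in the controls and 16651, 724 and 19297 in the mutants. It was high in control 3, il7 mutant 1 and il7 mutant 3, as apoa2, apoc1 and f2 were. Summed muscle markers were 8759, 5692 and 92373 in the controls and 178774, 21073 and 21713 in the mutants, and summed kidney tubule markers were 102216, 248485 and 291847 in the controls and 223427, 160324 and 222077 in the mutants. Of the 9 fitted muscle genes, 9 had a log2 change above 0. Their part in the levels of apoa2, apoc1 and f2 was not tested.

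For the pancreas, 10 of the 14 fitted features of a list of other exocrine genes had their highest libraries in control 3 and il7 mutant 2, all 10 with the gap of at least 3 times. The chymotrypsin-like gene ctrl had 26.8, 48.5 and 5694 in the controls and 100.2, 2479.8 and 182 in the mutants. The 2 features named CEL (carboxyl ester lipase, a bile-salt dependent lipase) had 5315 and 3982 in control 3 and 1617 and 1278 in il7 mutant 2, and between 10.2 and 201 elsewhere. Of the 36 genes with this gap, 10 were listed pancreas features, 10 belonged to the other exocrine list and 16 to no list. These 16 included both CEL features, the zymogen granule gene SYCN and the amylase gene amy2al2. They also included NCS1, CALCB, ccdc166 and tnnc2.1, so the gap was not confined to genes named as digestive enzymes.

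The remaining fitted genes of the exocrine list, pdia2, cuzd1.1, cuzd1.2 and zgc:92590, did not share the pattern, and their directions differed. For cuzd1.1 and zgc:92590, named after their values were seen, the authors' deposited table gives log2 fold changes of 1.23 and 1.77. Neither had an adjusted p under 0.05 there. The gene pdia2, for a protein disulfide isomerase of the pancreas in mammals, had 1527, 1003 and 1189 in the controls and 437, 512 and 406 in the mutants, so the groups did not overlap. Its log2 change was −1.44 (SE 0.25) with an adjusted limma p of 0.625, and the authors' deposited table gives −1.46 with an adjusted p of 0.000818. The gene cuzd1.2, named after its values were seen, had 141, 172 and 168 in the controls and 53.0, 18.8 and 28.0 in the mutants, with an adjusted p of 0.0024 in the authors' deposited table. The defining acinar transcription factor PTF1A had at most 3.00 normalized counts in any library and was at 0 in 3 of 6. Of 8 features for pancreas transcription factors, 3 were fitted, and these were detected in every library. NR5A2 had 169, 39.4 and 54.4 in the controls and 33.0, 47.6 and 23.0 in the mutants. ISL1 lay between 71.7 and 199 and pdx1 between 16.5 and 43.6. Only pdx1 was highest in control 3 and il7 mutant 2, without the gap of at least 3 times.

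Further hormone genes of the islets were named after their values were seen. The somatostatin gene sst2 had 156 in control 3 and at most 3.94 elsewhere, and the ghrelin gene ghrl had 54.4 in control 3 and at most 2.00 elsewhere. Both were low in il7 mutant 2, as ins was. The second insulin gene insb had 184, 0 and 9.98 in the controls and 1.18, 127 and 11.99 in the mutants, and was therefore high in control 1 and il7 mutant 2.

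Those 2 libraries also held transcripts of oocytes. Summed oocyte genes were 187649, 345 and 1129 in the controls and 229.9, 95749 and 590.5 in the mutants. The digestive enzymes were high in il7 mutant 2 but among their lowest in control 1, and they were high in control 3, where the oocyte sum was low. The part of the oocyte transcripts in the enzyme levels was not tested. The vitellogenin gene vtg2, for a yolk precursor made by the liver of females, had 436, 42.4 and 9.98 in the controls and 1.18, 8540.1 and 4.995 in the mutants, and 5 of the 7 vitellogenin features were at 0 in every library. It was low in il7 mutant 3, where the protease inhibitors and fibrinogen chains were high. Without control 1 and il7 mutant 2 the median log2 change was 0.78 for the liver features and −1.51 for the pancreas features. That fit left out il7 mutant 2 but kept control 3, and the digestive enzymes were high in both.

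**Figure D4:**
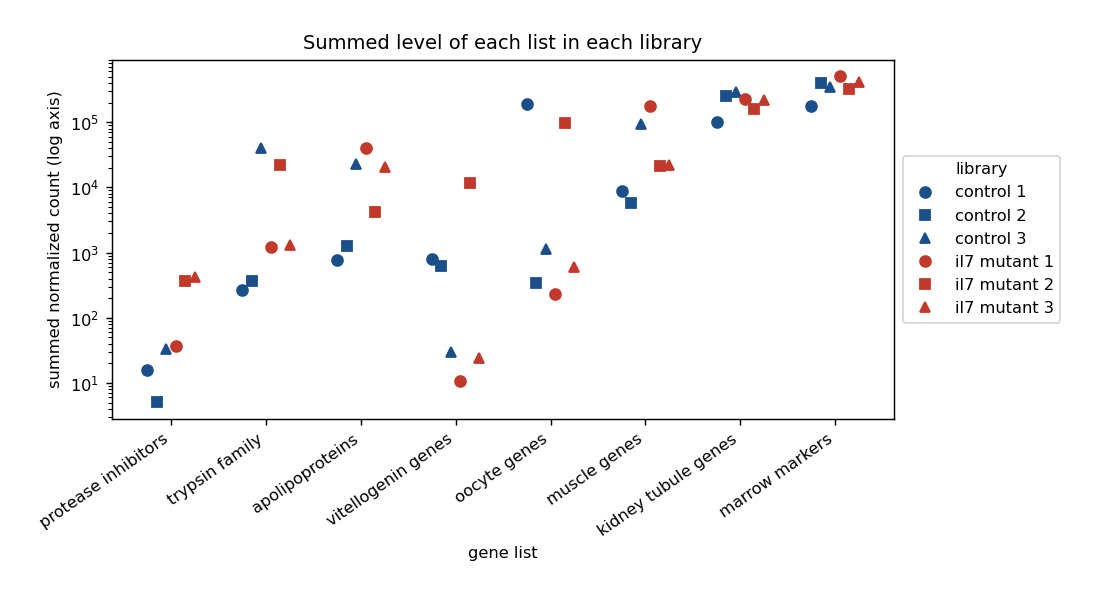
Summed normalized counts of 3 sets of the listed genes (protease inhibitors, trypsin family, apolipoproteins) and 5 other lists on a log axis, 1 point per library, blue for control and red for il7 mutant. The trypsin family is highest in control 3 and il7 mutant 2 (40700 and 21747), the protease inhibitors in il7 mutant 3 and il7 mutant 2 (421 and 364), the oocyte genes in control 1 and il7 mutant 2, and the muscle genes in il7 mutant 1 and control 3.

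The genes outside the list with the most similar profile were sought by Pearson's r over the 6 libraries with the mean centred profile of each organ, given as a description since library depth and composition are shared. For the pancreas profile they were both CEL features (r = 0.999 and 0.997), ctrb.3, ctrl, SYCN, CALCB, ccdc166, snx15, spink4 and sycn.1, with r of at least 0.984. Of these only snx15 varied little in level and stayed between 517 and 652. The next smallest span between the lowest and highest library was 44.7 times, for ccdc166. For the liver profile they were APOB (r = 0.982), FADS3, ACADSB, TMEM185A, znf1186, nlgn2a, ppp3ca, IGFBP5, NAPB and INSM1, with r of at least 0.965. Several of these varied little in level, such as znf1186 (1.37 times between the lowest and highest library) and TMEM185A (1.57 times). FADS3 had the largest span, 36.3 times. It had 34.7, 28.3 and 261 in the controls and 263, 882 and 1027 in the mutants. Its order of libraries, control 1 and 2 lowest and il7 mutant 2 and 3 highest, was that of the averaged liver genes.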

How the data were processed

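RNA of whole kidney marrow was measured in 3 control and 3 il7 mutant libraries. The submitters' processing notes list the build GRCz10 and, without roles, the tools featureCounts 1.5.2, STAR 2.5.3a, DESeq2 1.14.1 and bcl2fastq 2.17.1.14; their settings are not known here. For each gene the authors deposited a signal, a normalized count that their naming ascribes to DESeq2. The authors' deposited table gives a log2 fold change (the unshrunken one is printed), a p-value with its adjusted value, and a test statistic, a score that was not used. Every deposited value was a whole multiple, within 1e-06, of 1 size per library, and the totals of the multiples gave the depth (34496353 to 46120889 reads). Numbers of reads printed for single genes are these multiples; no count model was run on them.

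Gene symbols were looked up in a name table that covered 26433 of the 32267 features (81.9%) and writes some in capitals; 1 member was matched through a RefSeq synonym. Gene order came from the RefSeq annotation of assembly GRCz12tu, which is not the build of the files. Sample titles gave groups and replicate numbers. The 20782 genes whose mean reached 10 normalized counts entered limma 3.58.1 (R 4.3.3), fitted to log2(normalized count + 1) with a variance trend and Benjamini-Hochberg adjustment; a change on this scale understates that of low genes. The fit was tested on simulated data.

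The members and lists, and the alternatives on oocyte-rich libraries, were chosen with earlier results of these data known. All members may be named. Values in every library were to be given for il7, fabp10a, ins, gcga, the 5 liver and 5 pancreas features with the highest mean, the 3 of each with the smallest p, those whose groups do not overlap, the 3 genes with the highest mean of each other list, and the 10 genes most like each profile, of which some are summarised and 1 is not reported here; other genes were named after their values were seen. Alternatives changed the filter, pseudocount, scaling or variance model, added a replicate block or a term for oocyte-rich libraries, or left libraries out.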

Additional observations from a re-analysis of the deposited data

How the results depend on the processing

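Genes past the adjusted threshold were 0 among all genes, liver features and pancreas features in every alternative run, and limma's smallest adjusted p over all genes was 0.288, with a range of 0.0634 (array quality weights) to 0.816 (replicate block). The median log2 change of the liver features was 1.11 and lay between 0.53 and 1.99 when each library was left out, 0.80 with array weights and 0.78 without control 1 and il7 mutant 2. That of the pancreas features was 0.94 and lay between −0.34 and 3.27, 0.07 and −1.51 in the same order. The log2 difference of summed levels was 0.90 for liver (0.54 to 1.56) and −0.22 for pancreas (−0.98 to 0.76); without the feature with the highest mean these were 0.65 and 0.84, the last of the other sign. The 33 features had up to 17 alternatives each, since a feature under the minimum mean in a fit has no value there. Changing only the filter, dropping the variance trend or adding the replicate block cannot alter a log2 change, so those values could not change sign. Of all the values 49 changed sign, and the cause was not tested. With array weights these were PLG −0.13, c9 −0.17, prss59.2 −0.048, CPB1 −0.64 and gcga 0.39. Without control 1 and il7 mutant 2 they were c3a.1 −0.031, prss1 −1.63, prss59.1 −1.44, prss59.2 −1.75, ctrb.1 −1.51, ela2 −1.40, ela2l −0.87, ela3l −1.77, CPA1 (ENSDARG00000030915) −1.72, CPB1 −1.54, amy2a −1.06 and gcga 0.70. Leaving out each library, the ranges that crossed 0 were apobb.1 −0.16 to 0.50, FGB −0.16 to 1.01, f2 −0.024 to 1.95, PLG −0.075 to 1.28, TTR −0.60 to 0.048, RBP4 −0.19 to 0.28, c3a.1 −0.015 to 0.35, c9 −0.0037 to 2.32, prss1 −0.46 to 3.12, prss59.1 −0.055 to 4.06, prss59.2 −0.51 to 3.15, ctrb.1 −0.14 to 3.88, ela2 −0.51 to 2.90, ela3l −0.43 to 3.55, CPA1 (ENSDARG00000021339) −0.41 to 0.047, CPA1 (ENSDARG00000030915) −0.58 to 3.39, CPB1 −0.84 to 1.29, amy2a −0.24 to 3.66, ins −1.92 to 0.38 and gcga −0.80 to 0.67. The minimum mean was applied anew in each fit, so ins has no value without control 3 and ahsg2 none without il7 mutant 3. Those are the libraries in which ins and ahsg2 were highest. The ranges and medians above lack these values, so the full range of ins is not known. With replicate number as a block the calls were 0. The liver median stayed at 1.11, which such a block cannot change since each number occurs once per group. Same-numbered libraries deviated with correlations of −0.51, −0.40 and 0.51, so the numbers are not shown to pair the samples. Scaling to the library total was added after seeing the data. The alternatives TMM scaling and count tests were not run. At 0 to 11 reads in the controls, the protease inhibitor levels are limited by depth, and counting error alone allows up to 3 reads where 0 were seen.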
